A study of Rattus norvegicus with 6 samples.

Results

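Genes of secreted antibacterial proteins and protease inhibitors were followed in the inner epithelial layer of the rat colon after a single dose of melatonin. The set holds 9 genes, chosen by name with the melatonin contrast of these animals already known, among 13104 genes and unmatched transcripts in all. A row in the table was found for 8 of them, namely Scgb1a1, Pla2g2a, Serpina3n, Slpi, Lyz2, Retnla, Lcn2 and Reg3g. For Reg3b no row was found. Because the contrast was used in the choice, the values of the members are given as a description and carry no p-value.

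The MEL group was 3 rats injected intraperitoneally with 1 mg of melatonin per kg of body weight, here animals 4, 5 and 6. The VEH group was 3 rats given 2.5% ethanol in PBS, animals 1, 2 and 3. All 6 were adult male Wistar rats, an outbred stock, and in all of them the pineal gland had been ablated, so none had the gland's own nightly melatonin output. The injection opened the subjective night, and the rats were killed 4 h afterwards.

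The colonic epithelium faces a dense bacterial community and secretes proteins that act on it. Lysozyme cleaves the peptidoglycan of bacterial walls, group IIA phospholipase A2 hydrolyses the phospholipids of bacterial membranes, lectins of the Reg3 family bind and damage bacteria at the surface, and lipocalin 2 withholds iron by binding bacterial siderophores. Secreted inhibitors such as Slpi and the serpins block serine proteases, among them those that leukocytes release. Many of these genes are known to respond to cytokines through STAT3, NF-kB and C/EBP factors.

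Values are FPKM, fragment counts scaled to transcript length and to the mapped fragments of the library, so levels can be compared between genes. Depth was low: steps between low FPKM values give an estimate of 3280000 to 3560000 mapped fragments per library, and 12057 to 12323 transcripts lay above 0. All 8 epithelial markers checked against the labelled tissue had a row, and their summed level was 9468 to 10350 FPKM in MEL animals and 8671 to 10022 FPKM in VEH animals. Pairwise correlation between libraries, over the 10137 features tested on the log2 scale, ran between 0.955 and 0.978, with the lowest median for MEL animal 6. Across all tested features 0 of 10137 (0%) were called higher and 0 (0%) lower, with limma's adjusted p required to be below 0.05 and its smallest value at 0.182. At an unadjusted p under 0.05 limma gave 380 of 10137, 185 higher and 195 lower. That share is below 0.05, the share that such p-values would give with no difference between the groups.

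By mean level over the 6 animals the order was Scgb1a1 (1679 FPKM), Pla2g2a (844 FPKM), Serpina3n (34.6 FPKM), Retnla (25.5 FPKM), Lyz2 (6.42 FPKM), Slpi (5.01 FPKM), Lcn2 (0.848 FPKM) and Reg3g (0.0633 FPKM). The ranges over the animals overlapped for each pair of neighbours in this order except Slpi and Lcn2. Scgb1a1 exceeded Pla2g2a in 5 of 6 animals and Retnla exceeded Lyz2 in 4, so these neighbours were not separated in every animal. Pla2g2a exceeded Serpina3n in 6 of 6 animals although their ranges overlap.

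**Figure D1:**
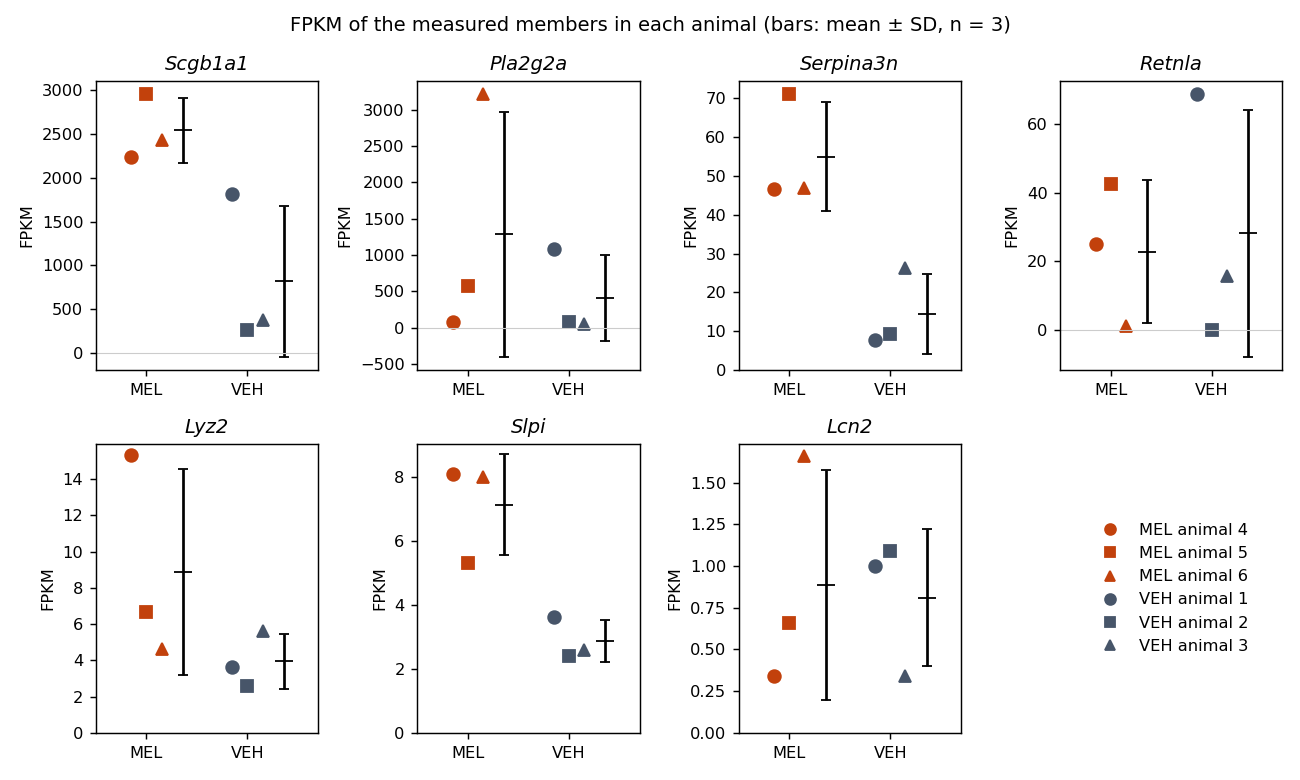
FPKM (vertical axes, linear) of 7 members of the set in each MEL and VEH animal, with the group mean and SD (n = 3) as black bars. The MEL points lie above every VEH point for Scgb1a1, Serpina3n and Slpi, whereas the groups overlap for Pla2g2a, Retnla, Lyz2 and Lcn2.

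6 members reached the mean of 1 FPKM needed to enter the fit across all features, and 3 of these, Scgb1a1, Serpina3n and Slpi, had all MEL animals above all VEH animals. Over all features tested this was so for 4.04%, and for 4.33% all MEL animals lay below. Since the choice of members used this contrast, nothing is read from the share. The median log2 difference of the 6, MEL minus VEH on the log2(FPKM + 1) scale, was 1.36, against -0.02 over all features. For the same reason nothing is read from this median. With no filter, which brings in Lcn2 and Reg3g, the median of the 8 was 0.98.

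Scgb1a1 encodes secretoglobin 1A1, or uteroglobin, a small secreted protein best known from airway club cells and the uterus. It was listed at 2241.91, 2956.15 and 2429.92 FPKM in MEL animals 4, 5 and 6, against 1811.44, 259.82 and 376.42 FPKM in VEH animals 1, 2 and 3. The 3 MEL animals lay close together, VEH animal 1 lay just under them, and VEH animals 2 and 3 were far lower. Among all features it ranked 13, 10 and 15 in the MEL libraries, against 18, 320 and 225 in the VEH libraries. The group means were 2543 ± 370 FPKM in MEL animals and 816 ± 864 FPKM in VEH animals (SD, n = 3 each), a log2 difference of 2.17 ± 0.61 (SE). Here and below SE is limma's moderated one, from a variance drawn toward that of all tested features, not from the gene's SDs alone. On the log2 scale the SDs of Scgb1a1 were 0.21 in MEL animals and 1.48 in VEH animals. Without VEH animal 1 the log2 difference was 3.01, and without VEH animal 2 it was 1.61. Of 11 other genes of airway cells 5 had a row. Scgb3a1 was listed at 1.89 FPKM in MEL animal 5 and at 0 in the other 5, and Sftpa1 and the ciliated cell factor Foxj1 stayed at or under 0.60 FPKM. Cyp2f4, a cytochrome P450 of club cells, was listed at 5.46, 6.43 and 2.26 FPKM in MEL animals and at 5.16, 5.28 and 7.99 FPKM in VEH animals, a log2 difference of -0.38 (limma adjusted p = 0.972). Sftpd, surfactant protein D, was listed at 44.30, 28.92 and 36.99 FPKM in MEL animals and at 25.38, 20.20 and 204.81 FPKM in VEH animals, with its highest value in VEH animal 3, where Scgb1a1 was low.

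Serpina3n, a rodent counterpart of alpha-1-antichymotrypsin that in the mouse inhibits granzyme B, stood at 46.54, 71.03 and 46.97 FPKM in MEL animals 4, 5 and 6, against 7.73, 9.33 and 26.23 FPKM in VEH animals 1, 2 and 3. The groups did not overlap, and VEH animal 3 lay closest to the MEL animals. The mean was 54.8 ± 14.0 FPKM in MEL animals and 14.4 ± 10.3 FPKM in VEH animals (SD, n = 3 each), a log2 difference of 2.02 ± 0.40 (SE), with 1.71 to 2.53 when any 1 animal was left out. Serpina3 genes form a cluster of similar copies. Of these, Serpina3c, Serpina3k and Serpina3m have no row here, so the division of reads among them is uncertain.

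Slpi, the secretory leukocyte protease inhibitor of neutrophil elastase and cathepsin G, stood at 8.11, 5.33 and 8.01 FPKM in MEL animals, against 3.64, 2.42 and 2.58 FPKM in VEH animals. These values correspond to an estimated 17.7, 11.9 and 18.0 reads in MEL libraries and 8.07, 5.0 and 5.75 reads in VEH libraries, so each rests on few reads. The mean was 7.15 ± 1.58 FPKM in MEL animals and 2.88 ± 0.663 FPKM in VEH animals (SD, n = 3 each), a log2 difference of 1.06 ± 0.23 (SE), and 0.97 to 1.24 with 1 animal left out. Its within-group SD on the log2(FPKM + 1) scale was 0.27, against a median of 0.21 over all features tested. This scale narrows the spread of low genes, and the median covers features of all levels. Elane and Ctsg, which encode those proteases, have no row.

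The sequences just upstream of 2 of these genes are shown because Scgb1a1 and Serpina3n were the members whose groups did not overlap and for which the promoter table has an entry. Each line gives the 250 bases before the transcription start from RefSeq (build GRCr8), written 5′ to 3′ along the gene, at chr1:215409687-215409936, minus strand for Scgb1a1 and chr6:129088142-129088391, plus strand for Serpina3n. Capitals mark matches to a TATA box (TATAAA, gene strand), the C/EBP motif TTGCNNAA or the STAT motif TTCNNNGAA (both strands).
Scgb1a1: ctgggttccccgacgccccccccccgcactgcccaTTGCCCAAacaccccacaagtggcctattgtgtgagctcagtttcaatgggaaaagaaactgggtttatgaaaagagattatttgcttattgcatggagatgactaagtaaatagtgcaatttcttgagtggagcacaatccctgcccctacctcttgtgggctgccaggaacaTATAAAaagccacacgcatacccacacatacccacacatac
Serpina3n: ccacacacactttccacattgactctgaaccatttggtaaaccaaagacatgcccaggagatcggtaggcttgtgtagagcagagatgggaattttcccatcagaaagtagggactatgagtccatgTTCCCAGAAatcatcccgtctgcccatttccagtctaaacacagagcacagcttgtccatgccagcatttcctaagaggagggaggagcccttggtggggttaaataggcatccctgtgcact
Scgb1a1 has the TATA box 41 bases and a C/EBP match 215 bases before the start, and Serpina3n has a STAT match 123 bases before it.

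An entry existed for 8 of the 9 members, and Slpi had none. The TATA box was present in 3 of the 8 (Scgb1a1, Reg3b and Reg3g), and in 8.06% of 33365 distinct rat promoters of the same length. Matches to C/EBP lay in 3 of the 8 (Scgb1a1, Lcn2 and Lyz2; 9.21% of promoters), to STAT in 2 (Serpina3n and Reg3b; 7.68%), to the NF-kB decamer in 2 (Lcn2 and Reg3g; 6.34%) and to AP-1, TGANTCA, in 1 (Retnla; 6.35%). The interferon response motif (3.41%) and the forkhead motif TGTTTNC (18.3%) had no match in these windows, and the E-box CANNTG was present in 6 of the 8 (65.5%). These matches describe letters and were not tested as binding sites.

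**Figure D2:**
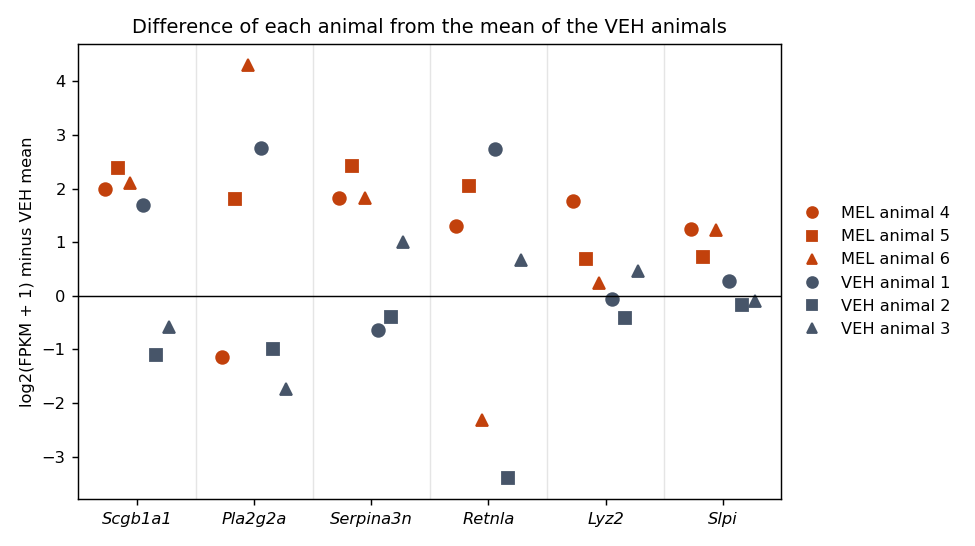
Difference of each animal from the mean of the VEH animals on the log2(FPKM + 1) scale (vertical axis) for the 6 members with a mean of at least 1 FPKM, MEL animals in orange and VEH animals in blue-grey. MEL animal 6 is the highest for Pla2g2a at 4.31 and among the lowest for Retnla at -2.32, whereas the 3 MEL animals lie together for Scgb1a1.

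Pla2g2a, the group IIA secreted phospholipase A2 that Paneth cells of the small intestine are known to release, had the widest range of FPKM among the members. It was listed at 72.47, 566.62 and 3212.35 FPKM in MEL animals 4, 5 and 6, against 1084.46, 79.56 and 47.27 FPKM in VEH animals 1, 2 and 3. Each group held both high and low animals: MEL animal 6 and VEH animal 1 were high, MEL animal 4 and VEH animals 2 and 3 were low, and the groups overlapped. The highest value was 68.0 times the lowest, and the gene ranked 10 among all features in MEL animal 6 and 2104 in VEH animal 3. The mean was 1284 ± 1688 FPKM in MEL animals and 404 ± 590 FPKM in VEH animals (SD, n = 3 each), a log2 difference of 1.66 ± 1.47 (SE). That difference was 0.34 without MEL animal 6, 0.79 without VEH animal 3, 1.16 without VEH animal 2, 3.06 without MEL animal 4 and 3.04 without VEH animal 1. In the authors' deposited table, with its score headed as a probability, Pla2g2a has 0.877 (rank 8 of 13647 transcripts), Scgb1a1 0.876 (rank 9) and Serpina3n 0.867 (rank 12). The log2 ratios of means in the authors' deposited table are 1.67 for Pla2g2a, 1.64 for Scgb1a1 and 1.93 for Serpina3n. In the authors' deposited table Lyz2 has a score of 0.638 (rank 244), Slpi 0.619 (rank 279) and Retnla 0.441 (rank 1097). Nothing is read from these scores and ranks, since the members were chosen with this contrast known.

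Some other genes were high in the same animals as Pla2g2a, and those given here were singled out after their values were seen. Lbp, the lipopolysaccharide-binding protein, was listed at 18.16, 50.53 and 241.19 FPKM in MEL animals 4, 5 and 6 and at 129.65, 36.01 and 15.62 FPKM in VEH animals 1, 2 and 3, which places the 6 animals in the same order as Pla2g2a. Duoxa2, the maturation factor of the hydrogen peroxide-producing oxidase Duox2, was listed at 20.39, 30.02 and 112.26 FPKM in MEL animals and at 42.20, 14.80 and 12.80 FPKM in VEH animals. The oxidase Duox2 itself was listed at 58.56, 63.81 and 175.95 FPKM in MEL animals and at 108.51, 53.82 and 40.32 FPKM in VEH animals. For these 3 genes MEL animal 6 was highest, VEH animal 1 second and MEL animal 5 next. Socs3, a feedback inhibitor induced through STAT3, was listed at 3.81, 16.49 and 34.41 FPKM in MEL animals and at 14.53, 1.84 and 3.42 FPKM in VEH animals, with MEL animals 6 and 5 and VEH animal 1 again on top. Dmbt1, a secreted bacteria-binding scavenger receptor protein, was listed at 75.04, 197.12 and 591.48 FPKM in MEL animals and at 169.84, 125.15 and 97.14 FPKM in VEH animals. Other antibacterial or bacteria-sensing genes stood in another order: Cd14, a lipopolysaccharide co-receptor, was highest in VEH animals 1 and 3, at 150.15 and 142.96 FPKM, and Zg16 in MEL animal 6 and VEH animal 3, at 3113.25 and 2857.36 FPKM. Of other secreted phospholipases, Pla2g5 spanned 0.52 to 4.74 FPKM with MEL animal 6 highest, while Pla2g10 spanned 76.47 to 107.55 FPKM with MEL animal 6 lowest.

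**Figure D3:**
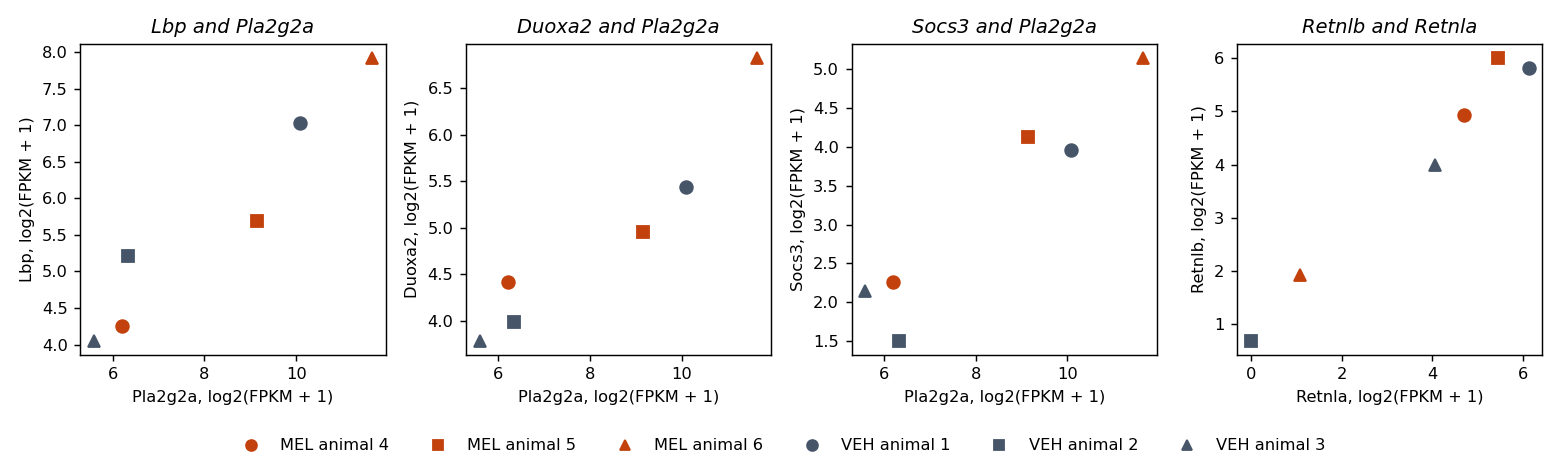
Levels on the log2(FPKM + 1) scale of Lbp, Duoxa2 and Socs3 against Pla2g2a, and of Retnlb against Retnla, with 1 point per animal (MEL in orange, VEH in blue-grey). In each panel MEL and VEH points are intermixed, and for Lbp and Pla2g2a the 6 animals stand in the same order.

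Retnla, which encodes resistin-like molecule alpha, in the mouse a product of cells exposed to IL-4 or IL-13, also split both groups. It was listed at 25.01, 42.51 and 1.11 FPKM in MEL animals 4, 5 and 6, against 68.75, 0 and 15.69 FPKM in VEH animals 1, 2 and 3. The lowest 2 animals were MEL animal 6, at an estimated 1.99 reads, and VEH animal 2, where 0 reads allow up to 1.82 FPKM by counting error. The log2 difference was 0.35 ± 1.58 (SE), and its sign turned without MEL animal 4 (-0.13), MEL animal 5 (-0.51) or VEH animal 2 (-1.35). In the authors' deposited table the log2 ratio of the means is -0.30, opposite in sign to the mean of log values. MEL animal 6 was thus highest for Pla2g2a and second lowest for Retnla.

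The neighbouring gene Retnlb, resistin-like molecule beta, a goblet cell protein that kills bacteria in the mouse, followed the same animals. It was listed at 29.51, 62.88 and 2.82 FPKM in MEL animals 4, 5 and 6 and at 55.32, 0.62 and 14.84 FPKM in VEH animals 1, 2 and 3. In both genes MEL animals 4 and 5 and VEH animals 1 and 3 were high and MEL animal 6 and VEH animal 2 low. Retnlg, next to Retnla on its other side, was listed above 0 in MEL animal 5 alone. Retnlb is itself 1 of the 8 goblet cell markers with a row, and in none of the other 7 were MEL animal 6 and VEH animal 2 the lowest pair. Spdef, a goblet cell transcription factor, was listed at 78.34, 83.01 and 84.87 FPKM in MEL animals and at 70.97, 113.42 and 79.25 FPKM in VEH animals. How reads were divided between the 2 related transcripts is not known from the table.

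The upstream windows of both genes are shown because the genes are neighbours and varied together. They are taken from RefSeq (GRCr8) at chr11:65426187-65426436, minus strand for Retnla and chr11:65448320-65448569, minus strand for Retnlb, 250 bases before each start, 5′ to 3′, with a match to the AP-1 motif in capitals.
Retnla: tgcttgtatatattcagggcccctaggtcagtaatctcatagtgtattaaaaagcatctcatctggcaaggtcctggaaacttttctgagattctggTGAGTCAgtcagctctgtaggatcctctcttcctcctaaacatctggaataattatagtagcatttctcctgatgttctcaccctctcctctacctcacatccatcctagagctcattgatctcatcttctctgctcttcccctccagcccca
Retnlb: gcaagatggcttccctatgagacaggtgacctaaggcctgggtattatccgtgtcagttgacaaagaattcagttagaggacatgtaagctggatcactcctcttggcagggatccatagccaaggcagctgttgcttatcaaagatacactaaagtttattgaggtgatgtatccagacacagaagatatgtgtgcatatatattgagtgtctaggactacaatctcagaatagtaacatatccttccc
In a global alignment, with gaps left out of the count, 123 of 218 aligned bases were identical, 56.4%. Unrelated windows were not aligned for comparison, so nothing is read from this share. The AP-1 match of Retnla, 153 bases before the start, has no counterpart in the Retnlb window.

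Lyz2, a lysozyme that in the mouse is the form of macrophages, stood at 15.31, 6.68 and 4.65 FPKM in MEL animals 4, 5 and 6, against 3.62, 2.61 and 5.62 FPKM in VEH animals 1, 2 and 3. MEL animal 4 was highest, and MEL animal 6 lay below VEH animal 3, so the groups overlapped. The mean was 8.88 ± 5.66 FPKM in MEL animals and 3.95 ± 1.53 FPKM in VEH animals (SD, n = 3 each), a log2 difference of 0.89 ± 0.40 (SE) that was 0.46 without MEL animal 4. MEL animal 4 also had the highest summed level of B and plasma cell markers, 9.87 FPKM, against 1.28 and 0 FPKM in MEL animals 5 and 6 and 0.70 to 2.19 FPKM in VEH animals. Cd79b, a chain of the B cell receptor, stood at 4.54 FPKM in MEL animal 4. The 12 macrophage markers with a row summed to 131.8 to 162.5 FPKM in MEL animals and 118.2 to 191.1 FPKM in VEH animals, mostly from Cd14. Of the 10 tested, Csf1r, C1qa and C1qc were highest in MEL animal 4, at 2.82, 8.11 and 10.35 FPKM. Cd14, Cd68, Mrc1, C1qb, Aif1, Fcgr1a and Tyrobp were each highest in another animal. The part of these cells in the Lyz2 values was not tested, and in bulk tissue more cells of a type and more RNA per cell cannot be told apart.

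Lcn2 and Reg3g were near the limit of detection, and the level of Reg3b, which has no row, is not known. Lcn2 was listed at 0.34, 0.66 and 1.66 FPKM in MEL animals and at 1.00, 1.09 and 0.34 FPKM in VEH animals, which corresponds to 1, 2 and 5 reads in MEL libraries and 3, 3 and 1 reads in VEH libraries. That is 8 reads over the MEL group and 7 over the VEH group, and no difference was detectable at this depth. Reg3g was listed at 0 in all MEL animals and at 0.38, 0 and 0 FPKM in VEH animals 1, 2 and 3, where the single value is 1 estimated read. A count of 0 reads allows up to 1.14 to 1.18 FPKM in a MEL library and 1.15 to 1.24 FPKM in VEH animals 2 and 3, by counting error alone. Lcn2 therefore stood low even in MEL animal 6 and VEH animal 1, where Pla2g2a and Lbp were high.

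**Figure D4:**
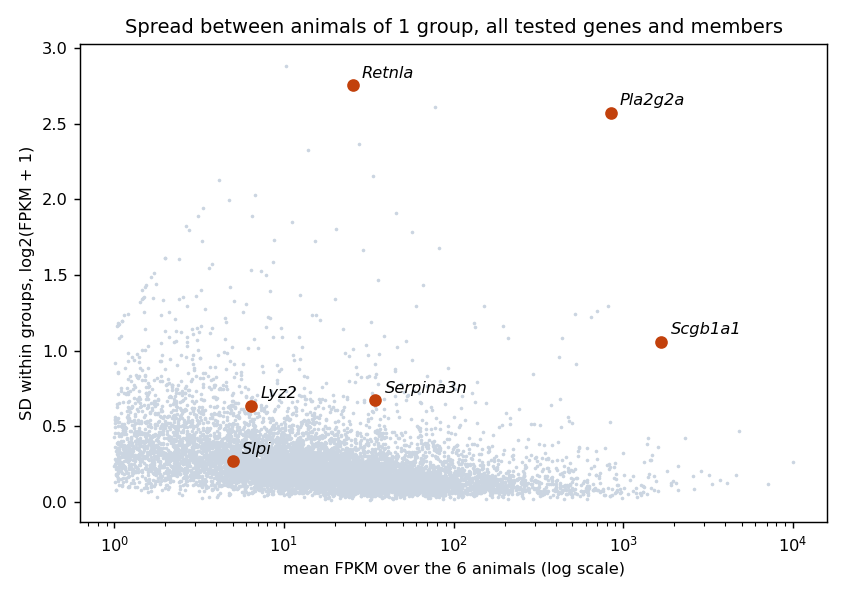
Within-group SD on the log2(FPKM + 1) scale (vertical axis) against the mean FPKM over the 6 animals (horizontal axis, log scale) for the 10137 features tested in grey, with 6 members in orange. Retnla and Pla2g2a lie at the top, at 2.75 and 2.57, and Slpi lies within the main cloud at 0.27.

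The members differed in how far animals of the same group lay apart. Among the 10137 features tested, the within-group SD ranked 2 for Retnla, 4 for Pla2g2a, 119 for Scgb1a1, 391 for Serpina3n, 451 for Lyz2 and 3368 for Slpi, where rank 1 is the widest. The SDs were 2.75, 2.57, 1.06, 0.67, 0.64 and 0.27 in that order, and the median of all features was 0.21.

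**Figure D5:**
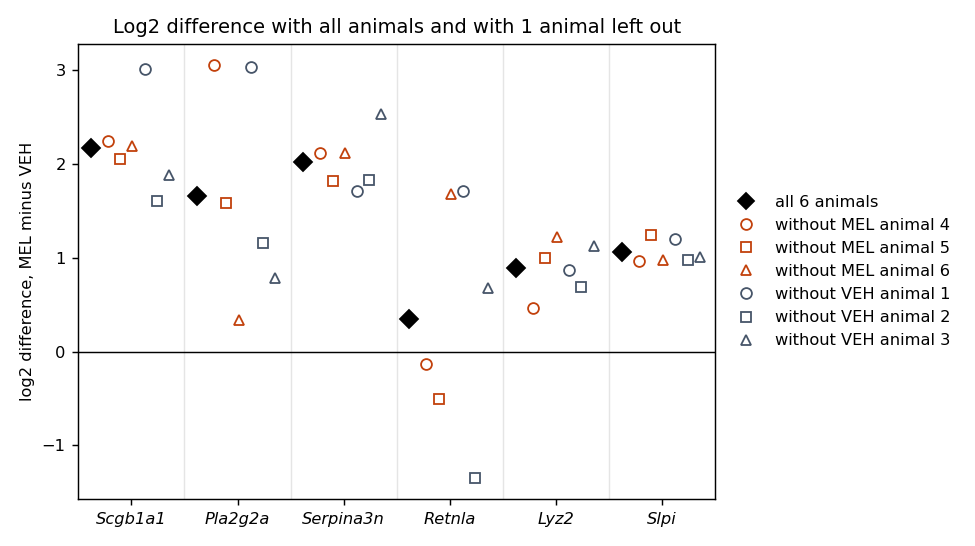
Log2 difference, MEL minus VEH (vertical axis), of 6 members with all 6 animals (black diamonds) and with 1 animal left out (open symbols). Scgb1a1, Serpina3n, Slpi and Lyz2 stay above 0 throughout, Pla2g2a stands at 0.34 without MEL animal 6, and Retnla crosses 0.

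Other genes of the same functions, taken from lists by role, gave no call. Of 19 other secreted antibacterial proteins tested, 0 were higher and 0 lower (limma adjusted p, background 0%). In 9 the log2 difference was positive (46.0% of all features had this), and the median was -0.09. All MEL animals lay above all VEH animals for 0 (4.04% of all features) and below them for 0 (4.33% of all features). Among the most abundant were Zg16, a peptidoglycan-binding goblet cell lectin, at 2132.52, 1523.09 and 3113.25 FPKM in MEL animals against 1857.00, 2298.68 and 2857.36 FPKM in VEH animals, and Itln1, the carbohydrate-binding intelectin, at 1295 ± 252 FPKM in MEL animals and 1618 ± 335 FPKM in VEH animals (SD, n = 3 each). Ang, a ribonuclease of the angiogenin family, was listed at 71.23, 48.05 and 44.55 FPKM in MEL animals and at 68.16, 68.58 and 77.41 FPKM in VEH animals (limma adjusted p = 0.972). Reg4, a lectin related to the Reg3 genes, was listed at 0.65, 4.45 and 1.27 FPKM in MEL animals and at 5.74, 4.87 and 3.22 FPKM in VEH animals (limma adjusted p = 0.972). Alpha-defensins named in the list had no row apart from RatNP-3b, which did not reach the mean of 1 FPKM.

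Among other protease inhibitors, 15 were tested, 0 were higher and 0 lower, and the median log2 difference was -0.04 with 7 positive (46.0% of all features). Among those with all MEL animals below all VEH animals was Tfpi, the tissue factor pathway inhibitor. It was listed at 7.32, 5.53 and 5.97 FPKM in MEL animals against 8.16, 11.96 and 9.16 FPKM in VEH animals (limma adjusted p = 0.972). Timp1, an inhibitor of metalloproteases, was listed at 225.00, 295.67 and 414.13 FPKM in MEL animals against 302.86, 224.70 and 176.95 FPKM in VEH animals. Serpinb1a, an intracellular inhibitor of neutrophil proteases, was listed at 299.25, 394.65 and 467.14 FPKM in MEL animals against 382.47, 284.85 and 283.83 FPKM in VEH animals, so for both genes VEH animal 1 lay within the MEL range. Spint2, a membrane inhibitor of serine proteases, was the most abundant at 1282.10 to 1400.48 FPKM in MEL animals and 1382.95 to 1441.92 FPKM in VEH animals. Of 13 proteases tested 0 were called and 9 were positive (46.0% of all features), with a median of 0.15. Gzmb, the granzyme that mouse Serpina3n inhibits, was listed at 0.41, 2.17 and 7.52 FPKM in MEL animals and at 0.79, 0.65 and 0 FPKM in VEH animals, while Serpina3n was alike in MEL animals 4 and 6.

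Inducing cytokines and receptors had 0 of 19 called, 14 positive (46.0% of all features) and a median of 0.17. Il22ra1, the receptor chain through which IL-22 induces Reg3 genes, was listed at 28.20, 28.34 and 17.29 FPKM in MEL animals and at 19.06, 17.13 and 29.03 FPKM in VEH animals, and Il22 itself had no row. The interleukin 1 gene Il1b stayed at or under 1.71 FPKM in every animal. Il1a, the other interleukin 1 gene, was listed at 0.29, 1.42 and 16.26 FPKM in MEL animals and at 0.86, 0.47 and 0.14 FPKM in VEH animals, so only MEL animal 6 was high (log2 difference 1.37 ± 0.84 SE, limma adjusted p = 0.972). Of 23 transcription regulators 0 were called, 13 were positive (46.0% of all features) and the median was 0.11. All MEL animals lay above all VEH animals for 3, Rela, Foxa1 and Socs1 (4.04% of all features), and below them for 1, Foxa2 (4.33% of all features). Socs1, a feedback inhibitor of cytokine signalling, was listed at 2.73, 6.51 and 10.40 FPKM in MEL animals against 1.94, 0.53 and 1.71 FPKM in VEH animals (limma adjusted p = 0.972). Cebpd, a C/EBP factor of the acute phase, was listed at 4.93, 10.85 and 16.69 FPKM in MEL animals against 5.57, 2.76 and 3.07 FPKM in VEH animals (limma adjusted p = 0.972). Stat3 was listed at 43.60, 54.38 and 73.39 FPKM in MEL animals against 54.29, 38.75 and 43.96 FPKM in VEH animals, and Nfkbia, the NF-kB inhibitor, at 38.14, 46.59 and 65.10 FPKM against 54.01, 37.04 and 30.49 FPKM. In both, as in Pla2g2a, VEH animal 1 was the highest of its group and MEL animal 6 the highest of all.

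Acute phase and oxidant-producing genes had 0 of 9 called, 7 positive (46.0% of all features) and a median of 0.49. The animals' medians from the VEH mean were 0.02, 0.25 and 0.83 in MEL animals 4, 5 and 6. In VEH animals 1, 2 and 3 they were 0.37, -0.19 and -0.18. Binding partners and receptors of the member proteins had 0 of 7 called, 5 positive (46.0% of all features) and a median of 0.15. Slc22a17, a receptor for lipocalin 2, was listed at 4.18, 3.58 and 2.99 FPKM in MEL animals against 3.84, 6.94 and 4.73 FPKM in VEH animals, and Anxa2, a phospholipid-binding annexin, at 284.55, 451.72 and 490.03 FPKM against 326.94, 250.97 and 275.62 FPKM. Interferon-stimulated genes had 0 of 27 called, 27 positive (46.0% of all features were) and a median of 0.70. All MEL animals lay above all VEH animals for 3 of them, Ifi27l2b, Ifit2 and Cmpk2 (4.04% of all features). The animals' medians from the VEH mean were -0.07, 1.04 and 1.24 in MEL animals 4, 5 and 6 and at 0.13, -0.13 and -0.08 in VEH animals. On the same scale MEL animals 4, 5 and 6 stood at 1.99, 2.39 and 2.11 for Scgb1a1 and 1.82, 2.42 and 1.83 for Serpina3n. For Slpi they stood at 1.24, 0.72 and 1.23. These 3 members had all MEL animals above all VEH animals, so MEL animal 4 was bound to exceed the VEH mean, and nothing is read from it. The values were -1.14, 1.81 and 4.31 for Pla2g2a, 1.31, 2.05 and -2.32 for Retnla and 1.77, 0.68 and 0.24 for Lyz2.

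Several markers of cells that carry such proteins elsewhere had no row, and a missing row gives no level. Of 16 neutrophil markers 8 had a row, with a summed level of 6.64 to 11.52 FPKM in MEL animals and 1.61 to 16.58 FPKM in VEH animals. Mpo, Elane and Prtn3 had none, and the calprotectin genes S100a8 and S100a9 made up most of the sum in every animal except VEH animal 3. S100a9 was listed at 1.88, 9.72 and 6.70 FPKM in MEL animals and at 11.59, 3.99 and 0.62 FPKM in VEH animals, and S100a8 at 4.46, 0.87 and 0 FPKM against 3.48, 3.80 and 0 FPKM. Of 13 Paneth cell markers only Itln1 and Ang2 had a row. These summed to 1147 to 1594 FPKM in MEL animals and 1330 to 1993 FPKM in VEH animals, mostly from Itln1. The defensins of this list, Mmp7 and Lyz1 had no row, so the sum gives no level of Paneth cells. Markers of alternatively activated macrophages and eosinophils summed to 3.69 to 14.05 FPKM in MEL animals and 3.68 to 5.0 FPKM in VEH animals, with MEL animal 6 highest through Mrc1, at 10.74 FPKM, where Retnla was low. Markers of T and NK cells summed to 15.01, 26.93 and 55.60 FPKM in MEL animals and 19.59, 21.51 and 9.38 FPKM in VEH animals. The chemokine gene Ccl5 was the largest part in MEL animals 5 and 6, at 9.90 and 25.08 FPKM. Cd3e was higher in all MEL animals than in all VEH animals. Cd3g was highest in VEH animal 2, at 3.67 FPKM, and Cd4 and Cd247 had log2 differences of 0.05 and 0.08. The part of these cells in the members' values was not tested.

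Genes whose pattern over the 6 animals was most like that of each member were named by Pearson's r on the log2 scale among 9528 other named genes. With so many candidates and 6 animals, which share 6 libraries, 12 to 61 genes reached an r of 0.95 for each member, so the values describe likeness alone. For Scgb1a1 the first 3 were Slc66a3, Tgfb1 and its receptor gene Tgfbr2. Tgfb1, the cytokine TGF-beta 1, was listed at 5.74, 5.97 and 5.40 FPKM in MEL animals and at 4.06, 1.69 and 1.95 FPKM in VEH animals, and Tgfbr2 at 7.85, 12.39 and 10.10 FPKM against 8.61, 3.13 and 4.01 FPKM. Both thus had VEH animals 2 and 3 lowest, as Scgb1a1 did. The first 3 for Pla2g2a were Pitpna, Bcl10 and Ube2d3, for Retnla Lsm1, Mpeg1 and Tymp, for Serpina3n Dnase1l3, Szrd1 and B3gnt2, for Slpi Xrcc4, Colgalt1 and Magi3, and for Lyz2 Mphosph10, Tbc1d5 and Taf15. Mpeg1, perforin-2 of macrophages, was listed at 2.64, 2.74 and 1.52 FPKM in MEL animals and at 3.09, 1.17 and 2.45 FPKM in VEH animals, in the same order as Retnla. Dnase1l3, a secreted nuclease, was listed at 3.32, 4.84 and 4.04 FPKM in MEL animals and at 1.21, 1.1 and 2.25 FPKM in VEH animals, with VEH animal 3 nearest the MEL animals as for Serpina3n.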

How the data were processed

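RNA of the colonic inner epithelial layer of 6 rats was captured with oligo(dT) beads and primed with random hexamers, per the labels' protocols, which describe no strand marking. RNA integrity numbers were 9.0 to 9.7. The authors deposited FPKM values per RefSeq transcript and animal, rounded to 2 decimals, with group means, a log2 ratio of those means and a score headed as a probability, per the file headers. The tool behind the score is not given in the sources used here. BWA 0.7.10-r789, Bowtie2, RSEM and the build rn6 are named in the submitters' processing notes, without roles.

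From these values, 12883 of 13647 transcripts were matched by accession to RefSeq symbols (GRCr8, names only) and summed per gene, 13104 features in all. Each member had 1 transcript. Features with a mean of at least 1 FPKM were fitted with limma 3.58.1 (R 4.3.3, variance prior following mean level) on log2(FPKM + 1). Two-sided p-values were adjusted by Benjamini and Hochberg's method over all tested features, at a threshold of 0.05. This scale understates changes of low genes. The procedure was tested on simulated data. Mapped fragments were estimated from the steps of low FPKM values with 37 bases taken off each transcript length, 87.5% to 94.1% of the values used lying within 0.1 of a whole read. Estimated reads carry counting error only.

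Members and gene lists were chosen with earlier results of these data known. Named genes are all members, up to 4 genes per list with the smallest p, 10 genes fixed by name (of which Nfkbiz and Elane have no row), and the 3 genes of highest r for each member. Some are passed over in the text. Genes named outside this rule, such as Lbp, Duox2, Dmbt1, Cd14, Zg16, Spdef, Cyp2f4, Spint2 and the Retnla relatives, were chosen after their values were seen. Alternatives were another pseudocount, other filters and scalings, unsummed transcripts, sample quality weights, a threshold of 0.10 and leaving out each animal. Some genes of the lists are not reported here.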

Additional observations from a re-analysis of the deposited data

How the results depend on the processing

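No feature was called among 10137 by limma at an adjusted p under 0.05, and this held with a pseudocount of 0.1, a filter of 1 FPKM or more in 3 or more animals, both scalings, unsummed transcripts, sample quality weights and a threshold of 0.10. With no filter 1 feature was lower, Mir3074. With 1 animal left out, 0 to 4 features were higher and 0 lower: 4 without MEL animal 4 (Ifi27l2b, Ifit2, Mir126a and Oasl2) and 3 without VEH animal 1 (Fam111a, Scgb1a1 and Tnfsf10). The Scgb1a1 value there and the members' median are descriptions, since the members were chosen with this contrast known. The members' median log2 difference, 1.36, was 1.38 and 1.37 under the scalings, 1.48 with a pseudocount of 0.1, 1.06 with Lcn2 included by the other filter, 0.98 with no filter and 1.07 to 1.71 with 1 animal left out. With 1 animal left out the log2 difference of Pla2g2a ran between 0.34 and 3.06, and that of Retnla between -1.35 and 1.71. Of 69 single member values under alternatives 3 changed sign, all of them Retnla. For Retnla a pseudocount of 0.1 gave 1.19 against 0.35. No paired analysis was possible because the MEL and VEH animals share no replicate numbers. At this depth Slpi, Lyz2 and Lcn2 rest on few reads.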
